A study of Mus musculus with 17 samples.

Results

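The genes described here are 10 nuclear genes whose proteins transcribe mitochondrial DNA (mtDNA), end or modulate that transcription, or stabilise the mRNAs it makes: Polrmt, Tfam, Tfb2m, Tfb1m, Tefm, Mterf2, Mterf3, Mterf4, Lrpprc and Slirp. They were chosen by name, and all 10 were found among the 56748 genes of the count table and among the 16195 genes with enough counts to be tested. Bulk RNA-seq of poly(A)-selected RNA was available for 17 mouse hearts, 1 library per mouse, from 9 hMut and 8 control (Ctrl) animals aged 12 to 16 months. The hMut mice are homozygous for the Polg iMut knock-in allele and carry Cre driven by the muscle creatine kinase promoter (Ckmm-cre), so that muscle cells switch from wild-type to proofreading-deficient mtDNA polymerase, while other cells of the heart keep the unrecombined allele. The labels call the comparison animals control only, and their alleles are not given there. Libraries held 32915159 to 46486964 assigned counts.

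Transcription of mtDNA starts when TFAM bends the promoter DNA, TFB2M helps to melt it and the single-subunit RNA polymerase POLRMT begins RNA synthesis, which TEFM makes processive. The long transcripts are cut into mRNAs, tRNAs and rRNAs, and LRPPRC with its small partner SLIRP binds the mRNAs, keeps them stable and supports their polyadenylation. Heart muscle depends on this machinery because its oxidative phosphorylation complexes contain subunits encoded in mtDNA.

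The 100 bases upstream of the start site are shown for 3 genes from different steps, the packaging and initiation factor, the polymerase and the mRNA stabiliser. These bases overlap no annotated exon. The same holds for Tefm, which is not shown and has 2 CpG dinucleotides there. The sequences are from GRCm39, 5′ to 3′ on the strand of the gene, which is the minus strand in each case, and capitals mark CpG dinucleotides. The intervals are chr10:71074111-71074210 for Tfam, chr10:79582421-79582520 for Polrmt and chr17:85098280-85098379 for Lrpprc.
Tfam: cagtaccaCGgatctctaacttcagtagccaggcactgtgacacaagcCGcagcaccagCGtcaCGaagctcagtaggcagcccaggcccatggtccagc
Polrmt: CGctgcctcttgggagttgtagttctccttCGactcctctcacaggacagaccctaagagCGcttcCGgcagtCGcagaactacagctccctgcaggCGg
Lrpprc: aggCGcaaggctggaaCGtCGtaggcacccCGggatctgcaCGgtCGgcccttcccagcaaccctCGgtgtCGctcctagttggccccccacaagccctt

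Over 300 bases from 250 before to 50 after the start, the 10 promoters held 4 (Tefm) to 33 (Mterf3) CpG dinucleotides, with a median of 19 against 11 over 21757 protein-coding promoters. None of the 10 held TATAAA in the 40 bases upstream of the start, against 2.79% of all promoters. On both strands, 4 motifs were searched that belong to regulators of nuclear genes for mitochondria. The NRF-1 core GCGCATGC was present in Polrmt alone, against 3.69% of all promoters. It stands in capitals in the next stretch of the minus strand at chr10:79582521-79582568, just upstream of the Polrmt bases above.
Polrmt, upstream: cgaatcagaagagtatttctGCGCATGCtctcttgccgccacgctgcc
The YY1 motif AAGATGGC was present only in Slirp, downstream of the start, against 2.47% of all promoters. The ETS motif CCGGAAGT (4.35% of all promoters) and the ERR motif AAGGTCA (4.48%) were in none of the 10 windows. A match, or its absence, says only which letters are in the window.

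The hearts differed before any of the 10 genes was considered. The share of counts from the 37 genes of mtDNA was 26.1% ± 2.19 (SD, n = 8) in Ctrl and 19.9% ± 2.12 (SD, n = 9) in hMut, a difference of -6.25 percentage points (two-sided exact permutation test, p = 8.23e-05), and the groups did not overlap. Levels are given as CPM, the counts of a gene scaled to a common library size. Polg, the engineered gene, rose from 34.7 ± 7.31 CPM in Ctrl to 57.9 ± 6.08 CPM in hMut (log2 fold change 0.74, edgeR adjusted p = 0.000448), where its counts cannot tell the mutant from the wild-type transcript. All 12 cardiomyocyte markers were detected in every heart. Their summed level ran from 50600 to 60609 CPM in Ctrl and from 38585 to 59045 CPM in hMut, with the lowest sums in hMut 9 (38585 CPM) and hMut 6 (41672 CPM). The summed level of 7 macrophage markers was 124 to 172 CPM in Ctrl and 145 to 551 CPM in hMut, and that of 7 fibroblast markers was 859 to 1025 against 868 to 1754 CPM. In both lists hMut 6 held the highest sum. The 4 atrial markers summed to 38.3 to 166 CPM in Ctrl and 77.6 to 686 CPM in hMut, with 686 CPM in hMut 6 and 424 CPM in hMut 9, and 2 of them were at 0 in some library. The 7 lymphoid markers summed to 1.22 to 38.6 CPM in Ctrl and 2.96 to 53.5 CPM in hMut, highest in hMut 6. No tested gene of these 5 lists passed in hMut against Ctrl. Of the remaining lists, 1 of 6 endothelial markers (Kdr) and 1 of 5 mural markers (Pdgfrb), named after their values were seen, were higher in hMut, and 0 of 4 erythroid markers passed. In whole tissue, fewer cells of a type and less RNA per cell cannot be told apart, and the part of cell make-up in the values below was not tested.

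Levels of different genes were compared per length, as CPM per kilobase of the gene length in the count table. The order below holds for that length only, since canonical transcripts differ from it. Lrpprc has 4686 canonical exon bases against 8504, and Mterf3 1479 against 4899. Mterf4 has 1366 against 5271, and Mterf2 4994 against 1752. The order per canonical length was not computed. In Ctrl hearts Tfb2m (25.1 ± 0.981) and Lrpprc (24.1 ± 1.76) were highest on this scale, and their ranges overlapped. Tefm (14.1 ± 1.10), Tfam (11.6 ± 0.422) and Mterf2 (10.2 ± 1.04) followed, then Polrmt (6.39 ± 0.506) and Mterf3 (5.48 ± 0.510), all in CPM per kilobase (SD, n = 8). Mterf4 (1.91 ± 0.187), Tfb1m (1.91 ± 0.221) and Slirp (1.73 ± 0.172) were lowest on the same scale, and their ranges overlapped in both groups. Gene overlaps bear on the lowest levels, since in the annotation 97.6% of the exon bases of the canonical Slirp transcript lie opposite exons of Alkbh1 and Snw1, 65.9% of those of Tfb1m opposite Tiam2 and 1700102H20Rik, and 47.4% of those of Mterf2 opposite Tmem263. Whether counting used strand is not given in the sources used here, so the values of these 3 genes are uncertain. Smaller shares lie opposite other exons for Tfb2m (10.9%, Cnst), Mterf3 (10.4%, Ptdss1) and Tefm (4.1%, Gm73212), to which the same limit applies.

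Of the initiation factors, Polrmt, the RNA polymerase itself, had 25.3 CPM in the lowest, 30.5 in the median and 32.5 in the highest Ctrl heart, and 23.7, 29.2 and 32.3 CPM in hMut. The groups overlapped, with 2 of 9 hMut hearts below every Ctrl heart. The log2 fold change was -0.09 (SE 0.066, 95% interval -0.23 to 0.05, edgeR quasi-likelihood adjusted p = 0.374). Tfam, which also packages mtDNA into nucleoids, ran from 48.4 through a median of 52.0 to 53.6 CPM in Ctrl and from 41.0 through 50.1 to 53.0 CPM in hMut. In 8 of 9 hMut hearts Tfam lay below the Ctrl median, and 4 lay below all Ctrl hearts. Its log2 fold change was -0.08 (SE 0.045, 95% interval -0.18 to 0.01, edgeR adjusted p = 0.248).

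Tfb2m, the promoter-melting factor, had 67.4, 69.4 and 75.4 CPM in the lowest, median and highest Ctrl heart and 51.2, 66.0 and 74.0 CPM in hMut. Of the 9 hMut hearts 6 were below all Ctrl hearts, and hMut 3 was among the highest of either group. The log2 fold change was -0.12 (SE 0.054, 95% interval -0.23 to -0.00), with an edgeR adjusted p = 0.179 over all genes, which did not pass. Tfb1m, whose protein methylates the small mitochondrial rRNA, had 5.82, 6.89 and 7.82 CPM in Ctrl and 4.57, 6.66 and 8.12 CPM in hMut, a log2 fold change of -0.05 (SE 0.098, edgeR adjusted p = 0.743), and 0.00036 without hMut 6 alone. Its hMut range extended past the Ctrl range at both ends.

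Tefm, the elongation factor, had 20.3, 21.8 and 24.9 CPM in Ctrl and 16.8, 21.8 and 24.8 CPM in hMut, with medians that nearly coincided. Its log2 fold change was -0.04 (SE 0.068, 95% interval -0.19 to 0.10, edgeR adjusted p = 0.720), and -0.0020 without hMut 6 alone. The Mterf genes encode proteins of the termination factor family, of which MTERF3 and MTERF4 also act in the making of mitochondrial ribosomes. Mterf2 had 15.3, 17.8 and 21.1 CPM in Ctrl and 8.13, 16.1 and 19.4 CPM in hMut. Its largest departures were hMut 6 at 8.13 and hMut 9 at 10.7 CPM, and the log2 fold change was -0.24 (SE 0.133, 95% interval -0.53 to 0.04, edgeR adjusted p = 0.253), or -0.09 without these hearts. Mterf3 had 24.9, 26.1 and 32.6 CPM in Ctrl and 20.4, 25.7 and 28.4 CPM in hMut (log2 fold change -0.08, SE 0.064, edgeR adjusted p = 0.440). Its highest heart was Ctrl 3, without which the log2 fold change was -0.03. Mterf4 had 8.65, 9.85 and 11.4 CPM in Ctrl and 7.94, 9.52 and 11.3 CPM in hMut (log2 fold change -0.08, SE 0.071, edgeR adjusted p = 0.467).

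Lrpprc, the mRNA stabiliser and the gene with the most counts of the 10, had 176, 205 and 226 CPM in the lowest, median and highest Ctrl heart and 137, 174 and 221 CPM in hMut. In hMut, 5 of 9 hearts lay below every Ctrl heart, and hMut 1 and hMut 2 lay above the Ctrl median. The log2 fold change was -0.21 (SE 0.082, 95% interval -0.38 to -0.03), with an edgeR adjusted p = 0.134 over all genes, which did not pass. Leaving out hMut 2, the heart with the most Lrpprc in its group, gave -0.25 (edgeR adjusted p = 0.0428) in a fit where 11.1% of all genes passed, and leaving out hMut 6 and hMut 9 together gave -0.12. Slirp had 4.60, 5.45 and 6.18 CPM in Ctrl and 3.95, 4.82 and 6.69 CPM in hMut, a log2 fold change of -0.11 (SE 0.097, edgeR adjusted p = 0.473). Although the proteins form a complex, the mRNA levels of Slirp and Lrpprc showed no relation that passed a test within hMut (r = 0.46, exact permutation p = 0.210, adjusted p = 0.360, rho = 0.32, n = 9). In Ctrl the value was r = -0.06 (exact permutation p = 0.892, adjusted p = 0.983, rho = 0.17, n = 8). Without the 2 hearts farthest from the median of Lrpprc, r was 0.15 in hMut and 0.39 in Ctrl. Over all genes, 14.2% were related to Lrpprc at an adjusted p under 0.05 in hMut and 0.0% in Ctrl. Without hMut 6 and hMut 9, 0 of 16194 genes were, over 7 hearts. With 8 Ctrl hearts the smallest exact permutation p possible is 2.48e-05, too large for any 1 gene to pass alone, and 7 hearts allow less. These shares therefore do not compare the groups.

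**Figure D1:**
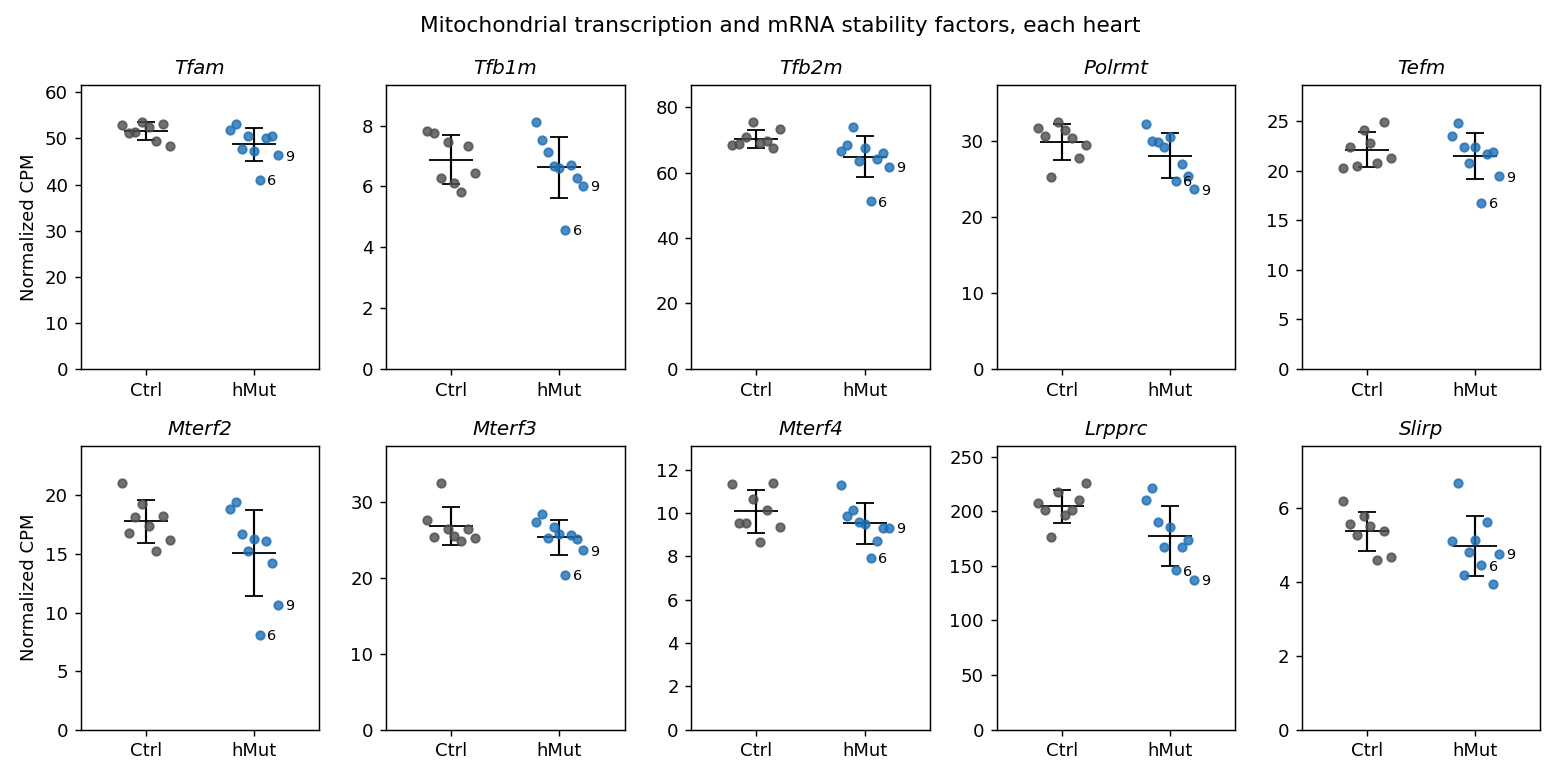
Normalized CPM (y axis, from 0) of each of the 10 genes in 8 Ctrl and 9 hMut hearts (points), with the mean and SD (bars), and hMut 6 and hMut 9 numbered. The groups overlap in all 10 panels, and hMut 6 is the lowest of the 17 hearts in 7 of them.

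Across the 10 genes, 0 passed an adjusted p of 0.05 in the edgeR test. Unadjusted, 2 of them, Tfb2m and Lrpprc, had an edgeR p under 0.05, as did 4178 of all 16195 tested genes. Over all tested genes 4.62% passed the adjusted threshold, 3.48% higher and 1.14% lower in hMut. All 10 log2 fold changes were below 0, with a median of -0.09 against 0.00 over all genes, and none of the 10 genes separated the groups, which 0.543% of all genes did with every hMut heart above every Ctrl heart and 0.0617% with every hMut heart below. The direction was not independent from gene to gene. After the group mean was subtracted, all 45 pairs of the 10 genes correlated positively over the 17 hearts, with a median r of 0.58. The values ran from 0.09 for Tfb2m with Slirp to 0.87 for Tfam with Mterf2. Pairs of other genes were not computed, nor were these pairs without hMut 6, so the values do not set the 10 genes apart. The single heart hMut 6 was the lowest of 17 in 7 of the 10 genes, as it was in 18.3% of all genes, and hMut 9 was lowest for Lrpprc and Polrmt, as it was in 11.4% of all genes. Slirp was lowest in hMut 8. Without hMut 6 and hMut 9 the median was -0.04, and Tefm (0.02) and Tfb1m (0.03) were no longer below 0.

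The mRNAs that this machinery makes differed far more. Of the 13 protein-coding genes of mtDNA, 9 were lower in hMut and 0 were higher. The median log2 fold change was -0.65 and the range -1.30 to -0.13. Genes that overlap are not separate mRNAs, so the 13 values are not independent. The 3 with the smallest p were the complex I subunits mt-Nd4l (-1.30), mt-Nd2 (-0.77) and mt-Nd4 (-0.75). The ends of the range belong to mt-Nd4l and mt-Atp8, each of which overlaps a neighbour on the same strand. Those neighbours, mt-Nd4 (-0.75) and mt-Atp6 (-0.90), had other values. Ctrl means ran from 147 CPM for mt-Atp8 to 112532 CPM for mt-Co1. How reads that match more than 1 gene or place were counted is not given, so the values of mt-Nd4l and mt-Atp8 are uncertain. Libraries were selected for poly(A), so these values reflect the mtDNA transcripts kept by that selection. A change in tail length cannot be told apart from a change in amount. Of these genes mt-Nd6 alone is annotated on the minus strand, and whether counting used strand is not given, so its value is uncertain too. The 10 factors had 95% intervals whose lower ends reached no further than -0.53, for Mterf2.

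**Figure D2:**
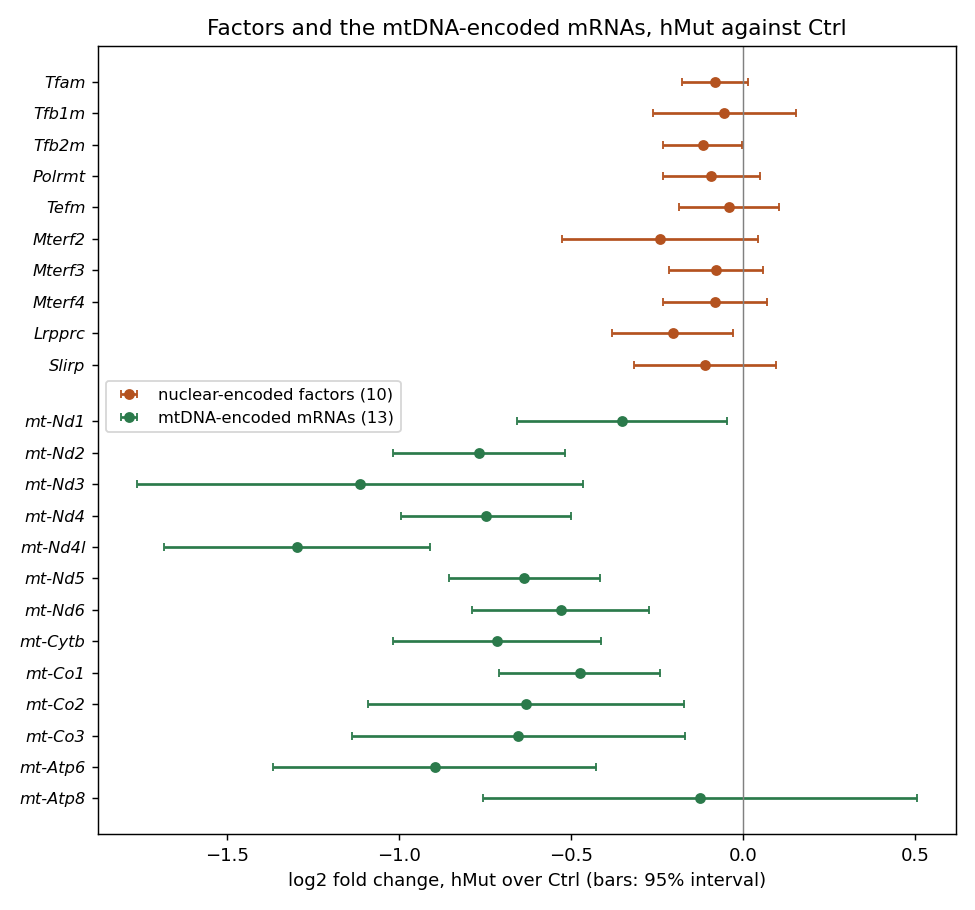
Log2 fold change of hMut over Ctrl (x axis) with its 95% interval for the 10 nuclear-encoded factors and the 13 protein-coding genes of mtDNA. The factors lie between -0.24 and -0.04, while the mtDNA genes lie between -1.30 and -0.13.

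Other gene lists around mtDNA expression are given by their counts, to be read against the 4.62% of all genes that passed. Of 19 genes for mitochondrial RNA processing and decay, 1 rose: Rexo2, which encodes an exonuclease for very short RNAs, had a log2 fold change of 0.24 (edgeR adjusted p = 0.0210). The next by p were Elac2, the tRNA 3′ processing enzyme (0.13), and Fastkd1 (-0.19), neither of which passed. Of 12 replication and nucleoid genes, Polg alone rose, with Top1mt, the mitochondrial topoisomerase (-0.25), and Twnk, the helicase (-0.13), next by p. Of 12 regulators of nuclear genes for mitochondria, 1 rose and 1 fell. Myc rose from 3.29 ± 1.03 to 9.43 ± 4.25 CPM (log2 fold change 1.52, edgeR adjusted p = 0.00359), with 8 of 9 hMut hearts above all Ctrl hearts. Ppargc1a, the coactivator of mitochondrial biogenesis, fell from 96.9 ± 6.56 to 79.3 ± 7.88 CPM (log2 fold change -0.29, edgeR adjusted p = 0.00812), with 8 of 9 below all Ctrl hearts, and its relative Pprc1 had 0.27 (adjusted p = 0.0700). Mterf1a, Mterf1b and Mrpl12, the remaining listed genes tied to mtDNA transcription, had log2 fold changes of -0.04, 0.06 and -0.06, and 0 of 3 passed.

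The level of each gene was then set against the mtDNA-encoded share heart by heart. Because the groups did not overlap in the share, relations were computed within each group, 20 in all, with p adjusted over all 16195 genes. Within hMut all 10 genes had a positive r, with a median of 0.52 against -0.01 over all genes. Tfam had the highest, r = 0.85 (exact permutation p = 0.00378, adjusted p = 0.383, rho = 0.67, rho exact permutation p = 0.0589, n = 9), and Mterf3 followed at 0.72 (exact permutation p = 0.0332, adjusted p = 0.383, rho = 0.32, n = 9). Tefm (0.65), Tfb1m (0.60), Mterf2 (0.56), Tfb2m (0.48), Slirp (0.43), Mterf4 (0.39), Lrpprc (0.38) and Polrmt (0.09) had lower r, all at an exact permutation p above 0.05. No r in the 10 genes passed adjustment, nor did any in all genes (0.0%), although 2016 genes had an unadjusted exact permutation p under 0.05.

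The lowest mtDNA-encoded share was that of hMut 6 (15.9%). Without hMut 5 and hMut 6, the hearts farthest from the median share, r was 0.60 for Tfam (exact permutation p = 0.152, n = 7), 0.42 for Mterf3, -0.04 for Tfb1m and -0.30 for Tfb2m. With fewer hearts and a narrower range of the share, neither Tfam nor Mterf3 then had an unadjusted p under 0.05. With hMut 6 and hMut 9 left out instead, Tfam had r = 0.89 (exact permutation p = 0.0141, adjusted p = 0.858, n = 7). Within Ctrl, Mterf3 (r = 0.90, exact permutation p = 0.0158, adjusted p = 0.5003, rho = 0.55, n = 8) and Polrmt (r = -0.81, exact permutation p = 0.0278, adjusted p = 0.5003, rho = -0.52, n = 8) stood at opposite ends. Without Ctrl 3 and Ctrl 5 they had r = 0.56 and -0.24 over 6 hearts with a narrower range of the share (exact permutation p = 0.225 and 0.660). In Ctrl 0.0% of all genes passed adjustment, and 1505 genes had an unadjusted exact permutation p under 0.05. The smallest exact permutation p that 8 hearts allow is 2.48e-05, so over 16195 genes no 1 gene could pass alone. The lack of passing genes in Ctrl therefore says little about the relations there.

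**Figure D3:**
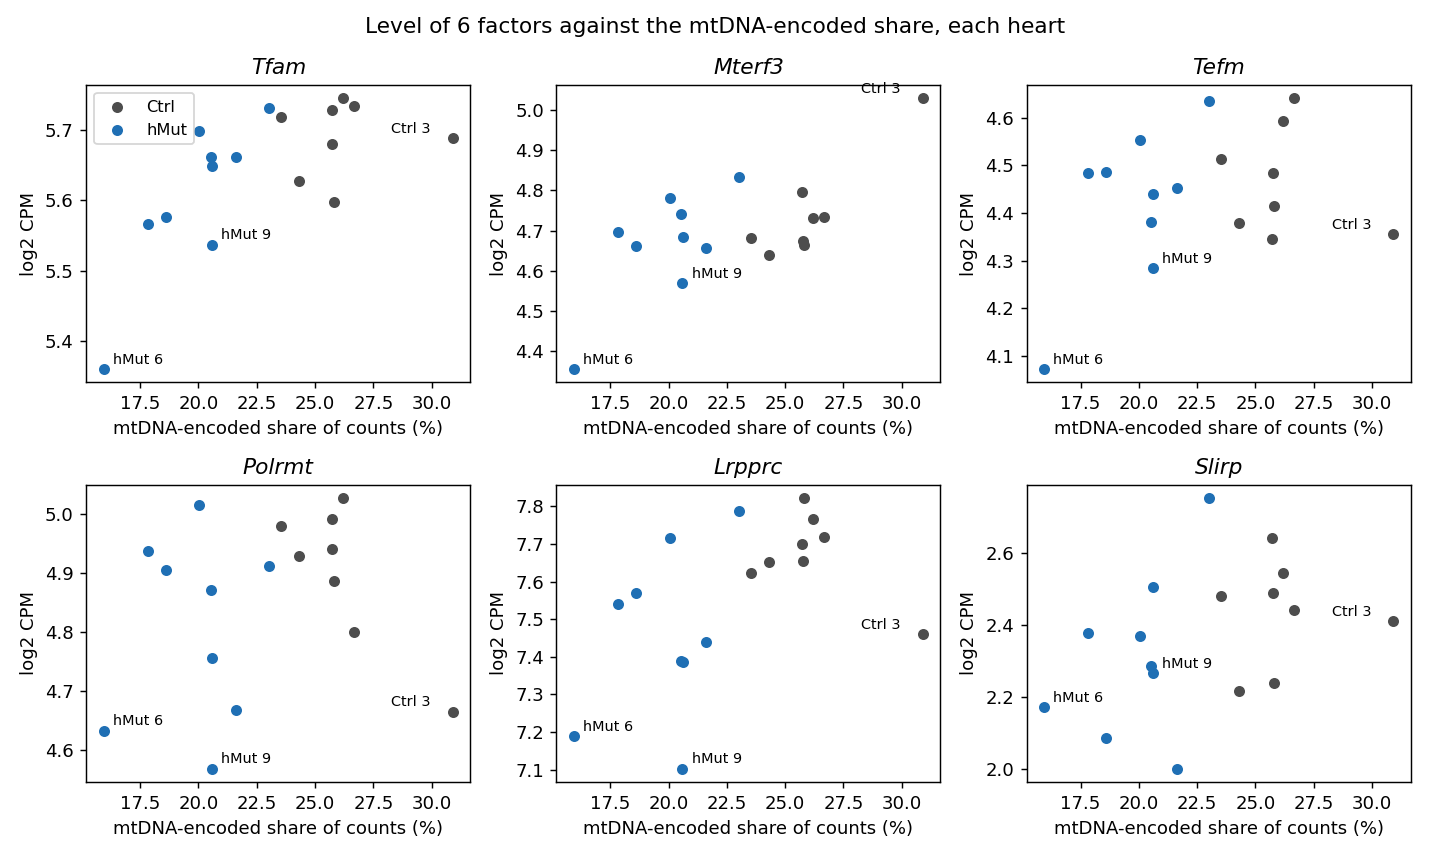
Log2 CPM (y axis) of 6 of the genes against the mtDNA-encoded share of counts in percent (x axis), each point 1 heart, with Ctrl 3, hMut 6 and hMut 9 named. The groups are apart on the x axis, and hMut 6 at 15.9% and Ctrl 3 at 30.9% are the ends of the range.

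The relation was also fitted as a count model with a slope for each group. In hMut, Tfam changed by 0.045 log2 units per percentage point of mtDNA-encoded share (SE 0.012, edgeR adjusted p = 0.0461), and 5.75% of all genes passed. The call was lost without hMut 6, with a slope of 0.029 (edgeR adjusted p = 0.999), and leaving out other single hearts put the adjusted p between 0.0126 and 0.141, past the threshold for 5 of all 17 hearts left out. Mterf3 had a slope of 0.046 (edgeR adjusted p = 0.0939). With 1 heart left out it passed in 2 of 17 fits, without hMut 5 (0.0422) or hMut 9 (0.0353). Without hMut 6 the Mterf3 slope was 0.018 (edgeR adjusted p = 0.999). In Ctrl, where 0.154% of all genes passed, none of the 10 did. The slopes differed between groups for 0.228% of all genes and for none of the 10, with Tfam at 0.043 (SE 0.018, edgeR adjusted p = 0.218).

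With RLE, upper-quartile or nuclear-genes-only scaling all 10 log2 fold changes stayed below 0 (medians -0.09, -0.10 and -0.09). When libraries were scaled on the 12 cardiomyocyte markers, the median log2 fold change of all genes moved to 0.22 and that of the 10 genes to 0.12, which left the 10 genes at -0.10 relative to all genes, against -0.09 before. Of the 10, 8 then had a log2 fold change above 0, and 1 of the 10, Tefm, passed as higher (0.17, edgeR adjusted p = 0.0362), where 35.8% of all genes passed, 98.2% of them higher, but all 10 stayed below the median of all genes. Lrpprc (-0.00) and Mterf2 (-0.06) stayed lowest. Within hMut the r of Tfam with the mtDNA-encoded share was -0.09 under this scaling, and that of Polrmt was -0.76 (exact permutation p = 0.0159, adjusted p = 0.318, n = 9).

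**Figure D4:**
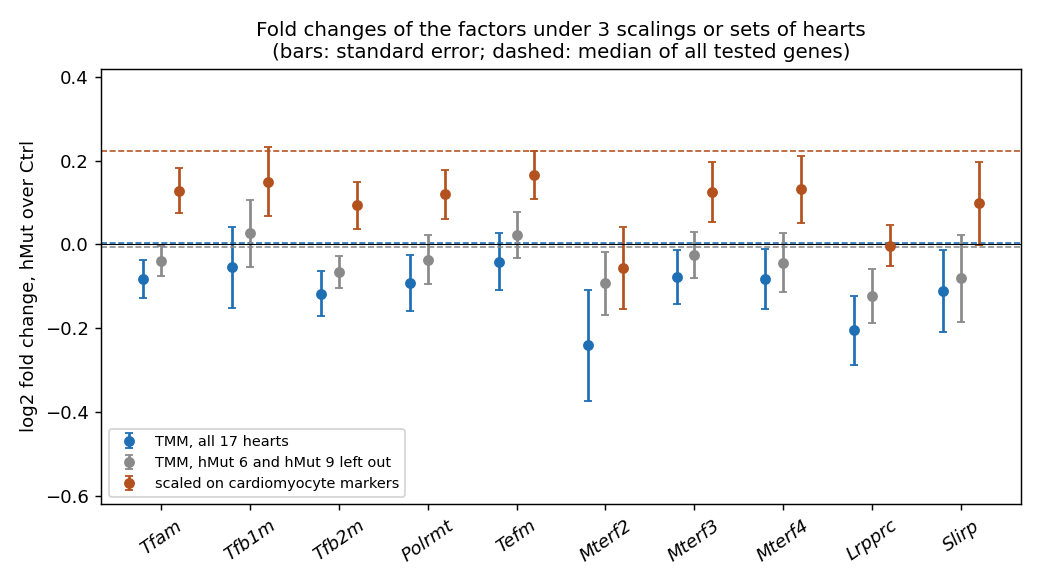
Log2 fold change of hMut over Ctrl (y axis, bars are standard errors) of the 10 genes with all hearts, without hMut 6 and hMut 9, and scaled on cardiomyocyte markers, with the median of all tested genes dashed. Under the marker scaling the 10 genes and the median of all genes (0.22) move up together.

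The genes most like each of the 10 were taken as the 3 with the highest r of group-centred log2 CPM over the 17 hearts, as a description. Mterf2 was most like Bcap29 (0.97), Apool (0.97) and Sucla2 (0.96), the last a subunit of succinyl-CoA synthetase. Lrpprc was most like Fam210a (0.94), Ppm1l (0.94) and Ogdh (0.93), the last a subunit of the 2-oxoglutarate dehydrogenase complex. Tfam was most like Zfp672 (0.94), and Tefm was most like Rcan2 (0.91) and Esrra (0.90), a nuclear receptor of mitochondrial gene control. For Mterf3 the most alike of all tested genes was mt-Nd2 (0.88), a complex I mRNA encoded in mtDNA. Ctrl 3 was the highest and hMut 6 the lowest heart for both Mterf3 and the mtDNA-encoded share. The r without these hearts was not computed. The closest to Tfb1m was Pkia (0.89), to Tfb2m Rhot2 (0.90), which encodes a GTPase of mitochondrial transport, and to Polrmt Rab5if (0.90). Mterf4 and Slirp had less close matches, at most 0.87 each, with Faf1 and Tmem268.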

How the data were processed

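RNA was extracted from heart tissue, poly(A)-selected and sequenced. Per the labels and the study's methods, the authors trimmed reads with fastp, aligned them with HISAT2 2.2.1 to GRCm39 and made counts per gene with featureCounts 2.0.6. The deposited values are whole-number counts, not normalized. Annotation release and strand setting are not given in the sources used here, and exon overlaps come from a separate annotation. Genes were kept by edgeR's filterByExpr and scaled by TMM. The main test was edgeR 4.0.16 (quasi-likelihood, R 4.3.3) over all 17 hearts, hMut against Ctrl, with Benjamini-Hochberg adjustment over 16195 genes and a threshold of 0.05. CPM used TMM library sizes, and log2 CPM a prior count of 2. The mtDNA-encoded share was compared by an exact permutation over 24310 splits, near the smallest p they allow. Relations used exact permutations of pairings (362880 in hMut, 40320 in Ctrl). Groups and replicate numbers came from the labels, and each library is a mouse. Both statistical scripts were tested on simulated data.

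The 10 genes, the 5 other gene lists and the 8 marker lists were chosen with earlier results of these data known. All 10 genes are named, with Polg, the 3 genes of each other list with the smallest p, and, for each of the 10, 1 or more of the 3 genes most like it. Alternatives were DESeq2 1.42.0, other normalizations and filters, nuclear genes only, marker scaling, a covariate for inferred sex, a replicate block and hearts left out. Sex is not in the labels and was read from the counts of Xist and of genes on the Y chromosome. By that reading 3 Ctrl and 2 hMut hearts were female. Same-numbered hearts had correlated deviations over 0.1 in 1 of 8 pairs. The labels do not say whether the numbers pair animals, and such correlations cannot settle it. The main test treated the hearts as unpaired.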

Additional observations from a re-analysis of the deposited data

Results flagged for a closer look

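Ctrl 3 stood apart from the other 7 Ctrl hearts in 2 of the 22 groups of values examined, where chance gives about 5% of groups. Its mtDNA-encoded share was 30.9%, against 26.7% in the next heart. Its Mterf3 level was 32.6 CPM, against 27.7 CPM in the next heart.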

How the results depend on the processing

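In the fit reported 749 of all genes passed. DESeq2 gave 1556, no filter on low counts 463, and leaving out hMut 6 and hMut 9 gave 431. Marker scaling gave 5794, of which 98.2% were higher, against 75.3% in the fit reported and 64.8% with DESeq2. Leaving out 1 heart gave 395 (without hMut 5) to 1792 (without hMut 2), with a move of over 1.5 times also without Ctrl 1, 2, 5, 6, 7 or 8 and without hMut 1, 6, 7 or 9. The causes were not tested.

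Of the 280 alternative log2 fold changes of the 10 factors, 268 kept their direction and their side of the threshold. Under marker scaling 1 factor passed, Tefm (0.17, reversed), and the other reversed values were Tfam 0.13, Tfb1m 0.15, Tfb2m 0.093, Polrmt 0.12, Mterf3 0.13, Mterf4 0.13 and Slirp 0.10. Without hMut 6 and hMut 9, Tfb1m (0.026) and Tefm (0.023) reversed. With 1 heart left out, Tfb1m ran from -0.096 to 0.00036 and 0 to 1 factors passed, the 1 being Lrpprc without hMut 2.

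Of the correlations with the mtDNA-encoded share in hMut, those reversed by marker scaling were Tfam -0.093, Tfb2m -0.28, Polrmt -0.76, Mterf3 -0.058, Mterf4 -0.31, Lrpprc -0.19 and Slirp -0.031, and in Ctrl Tefm 0.13. Without hMut 6 and hMut 9, Tfb2m (-0.33), Polrmt (-0.37) and Mterf4 (-0.13) reversed. The hMut slopes under marker scaling were -0.0041 for Tfam and -0.0019 for Mterf3, and without hMut 6 and hMut 9 Tfam had 0.030, not past the threshold. The slope alternatives were chosen after seeing the data.

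With the replicate block, 185 genes passed, against 415 without it in the same 16 libraries, and none of the 10 factors passed in either. Same-numbered hearts had correlated deviations of -0.23 to 0.34, and 1 of 8 correlated best with its own number. The lowest count of any factor in a heart was 144, for Slirp, so its counting error is the largest of the 10.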
